A study of Mus musculus with 24 samples.

Results

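The genes described here are 28 genes of cholesterol synthesis and its regulation in mouse liver: 8 of the mevalonate and isoprenoid steps (Acat2, Hmgcs1, Mvk, Pmvk, Mvd, Idi1, Fdps and Ggps1), 11 of the squalene and sterol steps (Fdft1, Sqle, Lss, Cyp51, Tm7sf2, Msmo1, Nsdhl, Hsd17b7, Ebp, Sc5d and Dhcr7), the 2 SREBP transcription factor genes Srebf1 and Srebf2, 5 genes of SREBP sensing and proteolysis (Insig1, Insig2, Scap, Mbtps1 and Mbtps2), and Stard4 and Mylip. The genes were chosen by name as members of the pathway, with their levels in these same livers already seen. Their fold changes are therefore a description, and nothing is supported with the counts of members past a threshold. All 28 were found among the 21755 genes of the p16-3MR table. The wild-type table lists 12643 labels from which 9 lower-case letters, vowels among them, are missing, and 18 of the 28 members have a label there that fits a single gene symbol. The labels of the other 10 (Acat2, Hmgcs1, Ggps1, Lss, Msmo1, Ebp, Sc5d, Srebf1, Srebf2 and Mylip) fit several symbols, and no wild-type value is given for them.

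RNA was sequenced from the livers of 24 mice in 8 groups of 3, with Smart-3SEQ, a method that reads the end of each transcript next to its poly(A) tail. In the p16-3MR mice, a transgene placed under the p16Ink4a promoter on a bacterial artificial chromosome carries a viral thymidine kinase, which turns ganciclovir (GCV) into a toxic product in cells that express p16; the mice of both treatments carry it. From an age of 16 to 18 months they received monthly injections, on 5 consecutive days, of GCV, given in the sample labels as 150 mg/kg, or of vehicle (VEH), alkaline water. The dose in the labels differs from that in the methods of the study. The age at which these livers were taken is stated in those methods but is not given in the labels. The wild-type mice, which lack the transgene, received GCV or VEH monthly from 6 months of age for 3 months, although the labels call them age-matched. Among the p16-3MR females, 31, 33 and 35 had been given GCV and 27, 28 and 29 VEH; among the males, 30, 32 and 34 had been given GCV and 24, 25 and 26 VEH. The wild-type females were numbered 4, 5 and 6 and the males 1, 2 and 3 under each treatment. The p16-3MR libraries were batch 1 and the wild-type libraries batch 2, so genotype, age, length of treatment and batch cannot be told apart, and no comparison was made between genotypes.

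Cells make cholesterol from acetyl-CoA. The mevalonate steps yield isoprenoid units, which are joined into farnesyl diphosphate, squalene and then, after ring closure, the sterols. Most of these enzymes are encoded by target genes of SREBP transcription factors, which are held in the endoplasmic reticulum by Scap and the Insig proteins while sterols are plentiful and are released by the site-1 and site-2 proteases, products of Mbtps1 and Mbtps2, when sterols run low. The liver is a main site of this synthesis, and its hepatocytes carry it out. SREBPs act at promoters together with NF-Y and Sp1, which bind CCAAT and GC-rich boxes.

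In promoter windows from RefSeq (GRCm38.p6; 250 bases before to 50 after an annotated start), 24 of the 28 members had at least 1 window. The NF-Y box CCAAT, read on both strands, was in a window of 20 of the 24 (83.3%) and in 41.1% of all 27025 genes of the table. The Sp1 box GGGCGG was in 21 of the 24 (87.5%), against 38.2% of all genes. The E-box CACGTG was in 5 of the 24 (20.8%), against 8.09%, and the letters of the sterol regulatory element core TCACNCCAC were in 1 of the 24, Hmgcs1 (4.17%), against 1.44%. These are matches of letters in a window and not measured binding, and genes with several windows had more chances of a match. The promoter of Hmgcs1, the synthase that precedes the mevalonate step, is shown because it holds the sterol element letters, and those of Mvd, Idi1, Cyp51 and Nsdhl because in wild-type females all GCV livers lay below all VEH livers for these enzymes. Each sequence is written along the strand of the gene, and capitals mark NF-Y boxes (CCAAT or, on the other strand, ATTGG) and, in Hmgcs1, also the sterol element core, which begins 137 bases before the start. The windows are chr13:119690101-119690400 on the plus strand for Hmgcs1, chr8:122443373-122443672 on the minus strand for Mvd, chr13:8885356-8885655 on the plus strand for Idi1, chr5:4104648-4104947 on the minus strand for Cyp51 and chrX:72918271-72918570 on the plus strand for Nsdhl.
Hmgcs1: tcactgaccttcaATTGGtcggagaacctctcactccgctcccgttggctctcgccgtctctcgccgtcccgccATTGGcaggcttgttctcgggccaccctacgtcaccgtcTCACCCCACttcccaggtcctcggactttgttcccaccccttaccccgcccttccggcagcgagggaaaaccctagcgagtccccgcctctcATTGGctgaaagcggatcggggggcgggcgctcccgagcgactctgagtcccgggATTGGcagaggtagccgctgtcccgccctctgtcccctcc
Mvd: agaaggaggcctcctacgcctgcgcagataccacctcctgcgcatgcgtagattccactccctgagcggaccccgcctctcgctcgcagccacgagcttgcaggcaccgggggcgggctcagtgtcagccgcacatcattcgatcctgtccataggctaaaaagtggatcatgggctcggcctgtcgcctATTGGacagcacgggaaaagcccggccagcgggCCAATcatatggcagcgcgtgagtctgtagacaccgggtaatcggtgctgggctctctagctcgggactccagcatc
Idi1: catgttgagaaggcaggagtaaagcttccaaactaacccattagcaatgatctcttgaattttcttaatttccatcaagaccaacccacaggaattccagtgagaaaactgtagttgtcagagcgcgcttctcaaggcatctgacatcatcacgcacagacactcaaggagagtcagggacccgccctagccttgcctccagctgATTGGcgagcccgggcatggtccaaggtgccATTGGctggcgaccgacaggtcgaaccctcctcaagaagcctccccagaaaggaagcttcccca
Cyp51: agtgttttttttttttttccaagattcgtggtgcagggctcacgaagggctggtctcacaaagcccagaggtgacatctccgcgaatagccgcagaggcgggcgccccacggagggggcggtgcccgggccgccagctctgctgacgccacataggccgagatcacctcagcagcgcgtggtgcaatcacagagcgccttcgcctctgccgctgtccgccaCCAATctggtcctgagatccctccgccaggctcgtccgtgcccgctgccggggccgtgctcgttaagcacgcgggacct
Nsdhl: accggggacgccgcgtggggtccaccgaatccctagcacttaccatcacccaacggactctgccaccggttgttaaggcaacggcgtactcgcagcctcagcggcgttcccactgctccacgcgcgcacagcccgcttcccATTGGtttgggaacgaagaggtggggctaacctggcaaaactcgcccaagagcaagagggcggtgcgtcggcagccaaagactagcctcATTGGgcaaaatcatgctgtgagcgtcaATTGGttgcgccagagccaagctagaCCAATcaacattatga
The Nsdhl and Hmgcs1 windows each hold 4 NF-Y boxes, those of Mvd and Idi1 hold 2 each and that of Cyp51 holds 1.

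In p16-3MR livers the synthesis enzymes varied widely between livers, most of all within the GCV groups. Levels are counts scaled to a common library size (CPM) after TMM scaling, which puts libraries of different composition on a common scale, and they are compared only between livers, never between genes. Among the 6 females the highest liver exceeded the lowest by 3.53 to 55.8 times over the 19 enzymes, with a median of 7.45 times, and among the 6 males by 1.91 to 21.2 times, with a median of 12.6. Without livers 33, 32 and 24, left out after their values were seen, the median was 2.21 times in females and 2.44 in males. The median over the 19 enzymes of the SD within groups was 1.28 on the log2 scale. On this scale the SD was larger with GCV than with VEH for every enzyme in each sex, as for Idi1 in females, 2.54 and 0.33. In CPM it was smaller with GCV for Pmvk in males, 31.6 and 50.1, and for Acat2 in males, 39.5 and 39.7. The share of all genes with a larger SD in GCV was not counted, and each GCV group holds 1 of livers 33 and 32. Liver 33, a GCV female, had the lowest female value for 25 of the 28 members, and liver 32, a GCV male, the lowest male value for 25 of the 28. Over the 7694 genes of the table at or above the lowest member's mean level, liver 33 was the lowest female for 45.4% and liver 32 the lowest male for 39.4%. The high end was also held by GCV livers: liver 31 was the highest female for 15 members (21.7% of all these genes) and liver 34 the highest male for 19 (28.6%).

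For Hmgcs1 the GCV females 31, 33 and 35 had 1256, 221 and 407 CPM and the VEH females 664, 843 and 331. The GCV males 30, 32 and 34 had 348, 64.9 and 1231 CPM, and the VEH males 24, 25 and 26 had 249, 624 and 556. The GCV livers thus lay at both ends of each sex with the VEH livers between them or overlapping them. Idi1, the isomerase that sets the balance of the isoprenoid units, had 591, 20.1 and 266 CPM in the GCV females and 281, 342 and 215 in the VEH females. It had 238, 36.8 and 602 CPM in the GCV males and 133, 379 and 308 in the VEH males. Livers 33 and 32 again stood lowest and livers 31 and 34 highest. Sqle, squalene epoxidase, had the same livers lowest and highest in each sex with a smaller span: 90, 25.5 and 72.1 CPM in the GCV females, 69.0, 82.5 and 40.8 in the VEH females, 50.7, 14.5 and 97 in the GCV males, and 33.3, 67.5 and 68.3 in the VEH males. The lowest enzyme values of liver 33 rest on very few reads, with 2 counts for Pmvk (phosphomevalonate kinase), 3 for Dhcr7, the last reductase of the pathway, and 5 for Acat2.

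The order of the livers was much the same for most enzymes. Each enzyme's log2 CPM was set relative to its mean over the 12 livers, and the median over the enzymes was taken per liver. This median was 1.06, -1.71 and 0.51 in the GCV females 31, 33 and 35 and 0.57, 0.37 and 0.02 in the VEH females 27, 28 and 29. It was 0.00, -2.28 and 1.21 in the GCV males 30, 32 and 34 and -0.57, 0.72 and 0.59 in the VEH males 24, 25 and 26. In the GCV livers 32 and 33 and the VEH liver 24, 18 of the 19 enzymes lay below their own mean, and in the GCV livers 31 and 34 and the VEH livers 25 and 27, 18 lay above it. Ggps1, which makes the geranylgeranyl diphosphate used to prenylate proteins, was the exception in livers 33 and 32: it had 21.6 CPM in liver 33 and 14.6 in liver 32, the highest values of their sex, against 5.37 to 9.56 in the other females and 7.68 to 10.7 in the other males.

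**Figure D1:**
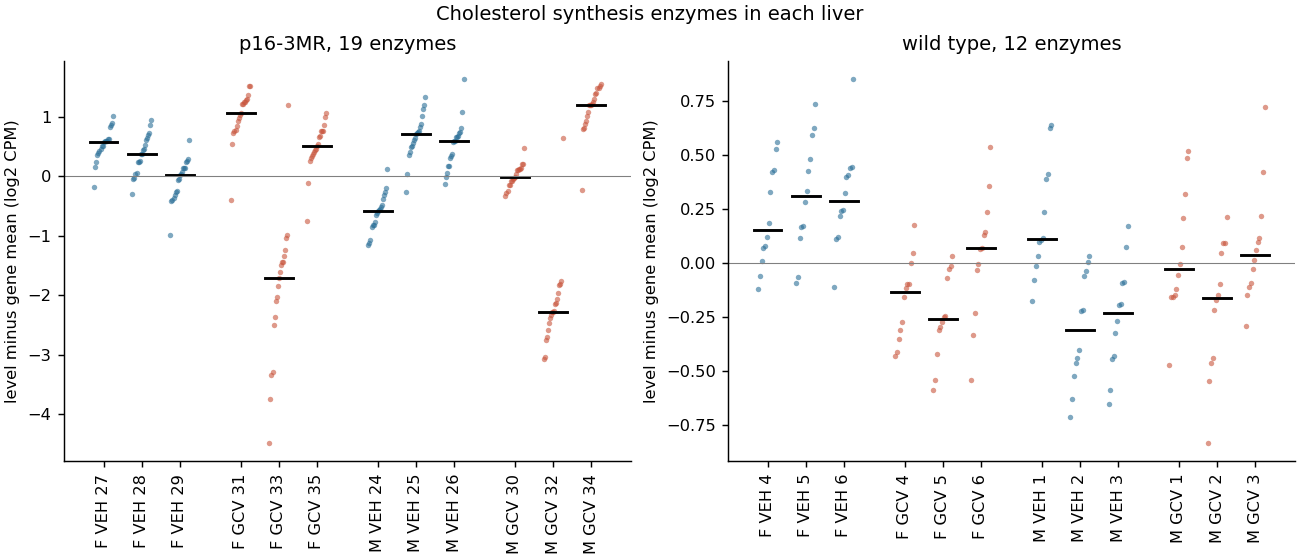
Level of each synthesis enzyme in each liver minus that enzyme's mean over the 12 livers of the genotype (log2 CPM, vertical axis), for 19 enzymes in p16-3MR (left) and 12 in wild type (right, on a narrower axis); points are enzymes and black lines their median. In p16-3MR the medians run from -2.28 in GCV male 32 to 1.21 in GCV male 34, and in wild type from -0.31 to 0.31.

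These differences went along with other features of the same libraries. Liver 33 had 64.0% of its counts from mitochondrial genes, against 12.3% to 22.4% in the other p16-3MR livers, and a TMM factor of 0.259. Livers 32 and 24 had the lowest summed level of the 6 hepatocyte markers, 26422 and 41836 CPM, against 85544 to 158492 in the other 10, and the highest sum of the 5 Kupffer cell markers, 2825 and 1449 CPM, against 93.6 to 890 in the others. The place of liver 33 depended on the scaling: its hepatocyte marker sum was the highest after TMM, 158492 CPM, and the lowest as a share of all counts, 4.10% against 4.77% to 13.1% in the others. Its sum rested on Alb, at 146129 CPM, while Ttr, Serpina1c and Cps1 had 634, 961 and 525 CPM there, the lowest of the females and above liver 32 alone. The sum of the 5 stellate cell markers was also highest in livers 32 and 24, 490.2 and 397 CPM against 142 to 322 in the others, as was that of the 5 sinusoidal endothelial cell markers, 412 and 261 CPM against 88.9 to 194. The cholangiocyte, lymphocyte and foreign tissue sums did not set both of these livers apart: the 5 cholangiocyte markers ran from 34.7 to 143 CPM, the 6 lymphocyte markers from 2.51 to 60.5, and the 2 matched of 4 pancreas and gut markers from 1.54 to 25.6. None of the 6 hepatocyte or 5 Kupffer cell markers was at 0 in any p16-3MR liver. Scaled to the hepatocyte marker counts in place of all genes, the median enzyme level was -0.63 in liver 32, 0.44 in liver 24 and -2.60 in liver 33. Alb made up most of these marker counts in each of these livers. It took 3.70% of all counts in liver 32, 5.14% in liver 24 and 3.78% in liver 33. The marker sums were 4.77%, 6.88% and 4.10%. In bulk tissue, fewer hepatocytes and less RNA per hepatocyte cannot be told apart. The part of cell composition and of RNA quality in the spread of the enzymes was not tested.

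**Figure D2:**
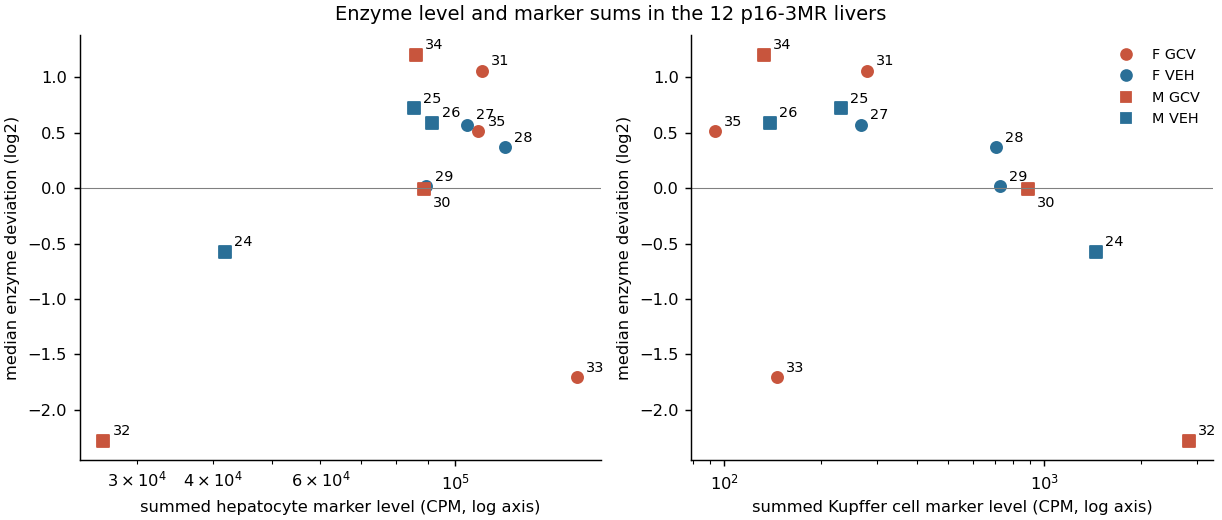
Median enzyme level of each of the 12 p16-3MR livers (log2, relative to each enzyme's mean; vertical axis) against the summed CPM of 6 hepatocyte markers (left) and 5 Kupffer cell markers (right), both on log axes; circles are females, squares males, red GCV and blue VEH, and numbers name the livers. Livers 32 and 24 have the lowest hepatocyte and highest Kupffer cell sums, and liver 33 has a low enzyme level with a hepatocyte sum that is the highest after TMM scaling and the lowest as a share of all counts.

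Among the regulators in p16-3MR, Srebf1 had a wide span between livers and Srebf2 a narrow one. Srebf1, whose main liver product drives fatty acid genes, ranged from 13.9 to 246 CPM among females, with 49.5, 13.9 and 246 in the GCV livers 31, 33 and 35 and 107, 56.9 and 78.2 in the VEH livers. In males it had 105, 33.2 and 182 CPM with GCV and 68.1, 124 and 81.3 with VEH. Srebf2, the factor most tied to sterol genes, had 27.8, 22.4 and 22.5 CPM in the GCV females, 38.2, 33.3 and 26.2 in the VEH females, 26.8, 16.5 and 35.3 in the GCV males and 22.1, 25.7 and 27 in the VEH males. Its SD within groups was 0.33 on the log2 scale, and that of Mbtps1 was 0.25, the lowest of the 28 members.

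Insig1, an SREBP target that retains SREBP in the endoplasmic reticulum, had 192, 80.3 and 322 CPM in the GCV females and 269, 240.2 and 137 in the VEH females. In males it had 167, 30.9 and 417 CPM with GCV and 90.9, 266 and 134 with VEH. In males livers 34 and 32 were highest and lowest, as for the enzymes; in females liver 35 and not liver 31 was highest. For Insig2, its paralog, the GCV females had 181, 86.5 and 37.9 CPM and the VEH females 63.1, 67.0 and 86.1, so that liver 35 was lowest here. The GCV males had 62.1, 43.4 and 105 CPM and the VEH males 75.3, 154 and 162.

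Stard4, a carrier of cholesterol between membranes, had 38.6, 11.6 and 95.8 CPM in the GCV females and 75.3, 70.2 and 46.1 in the VEH females. In males it had 39.9, 9.27 and 67.4 CPM with GCV and 25, 75.2 and 80.5 with VEH. Mylip, the ubiquitin ligase that degrades lipoprotein receptors and a target of oxysterol sensing, had an order of its own. The GCV females had 3.86, 2.32 and 4.53 CPM and the VEH females 6.43, 11.1 and 10.6, so all GCV females lay below all VEH females, as for 9.06% of the 7694 genes; it was the only member of the 28 without overlap in that direction. The GCV males had 15.6, 39.9 and 4.23 CPM and the VEH males 27.1, 8.04 and 8.13, and the highest values belonged to livers 32 and 24. Kupffer cell markers were also lower in GCV females: Vsig4 had 6.95 to 27 CPM against 42.6 to 152 in VEH females, Adgre1 5.53 to 8.5 against 17.6 to 47.5, and Cd5l 29 to 85.6 against 92.6 to 311, while Clec4f and Timd4 overlapped. The sum of the 5 was 93.6 to 279 CPM in GCV and 267 to 727 in VEH females, and its part in the level of Mylip was not tested.

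The other members with the lowest p in a p16-3MR comparison were enzymes of the mevalonate steps and the genes of SREBP transport and cleavage. Mvd, the decarboxylase that ends the mevalonate steps, had 37.0, 3.09 and 28.9 CPM in the GCV females and 26.3, 19.4 and 7.05 in the VEH females, and 15.4, 3.41 and 33 in the GCV males and 6.65, 31.4 and 14.1 in the VEH males. Mvk, mevalonate kinase, had 24.7, 3.86 and 12.2 CPM in the GCV females, 18.4, 16.8 and 7.68 in the VEH females, 9.16, 1.85 and 24.8 in the GCV males and 8.40, 10.5 and 10.6 in the VEH males. Pmvk had 70.0, 1.54 and 86.2 CPM in the GCV females and 76.8, 48.6 and 63.2 in the VEH females, and 40.9, 8.20 and 71.5 in the GCV males and 29.4, 94.5 and 127.9 in the VEH males. These 3 genes were lowest in livers 33 and 32, and the groups overlapped. Scap, the escort that carries SREBP out of the endoplasmic reticulum, had 34.5, 10.8 and 83.0 CPM in the GCV females, 69.3, 42.4 and 45.4 in the VEH females, 31.3, 13.7 and 40.7 in the GCV males and 25.4, 55.5 and 77.7 in the VEH males. Mbtps1, the site-1 protease, had 32.6, 31.7 and 42.6 CPM in the GCV females, 43.3, 49.3 and 35.9 in the VEH females, 32.1, 25.1 and 26.9 in the GCV males and 31.4, 38.4 and 50.2 in the VEH males. The groups overlapped for both. Mbtps2, the site-2 protease, had 5.2, 8.5 and 7.88 CPM in the GCV females, 4.42, 7.81 and 8.43 in the VEH females, 9.72, 20.3 and 3.84 in the GCV males and 11.1, 8.21 and 6.72 in the VEH males, and it was highest in livers 33 and 32. For Ggps1 the GCV females had 6.94, 21.6 and 5.37 CPM and the VEH females 8.18, 7.52 and 9.56, and the GCV males had 10.7, 14.6 and 7.88 and the VEH males 10.1, 7.68 and 8.44.

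No member passed edgeR's quasi-likelihood test between GCV and VEH in p16-3MR livers, with an adjusted p under 0.05 over all genes as the threshold. In females 16 members had a fitted log2 fold change above 0 and 12 below, with a median of 0.02 against 0.00 over all genes. In males 11 were above 0 and 17 below, with a median of -0.06 against 0.04. Group means of log2 CPM gave different directions. By these means, only Ggps1, Insig2 and Mbtps2 of the 28 were higher with GCV in females. In males only Ggps1, Srebf2, Mbtps2 and Mylip were. By edgeR, 0 of the 28 members passed in either sex, where 0% of all 21755 genes did. No member had an unadjusted p under 0.05 in either sex, where 7.37% of all genes did in females and 1.91% in males. DESeq2 and limma-voom also called 0 members in either sex: DESeq2 called 0.414% of all genes in females and 0.023% in males, and limma-voom 0.0322% and 0.667%. The median SE of a member's fold change was 0.76 in both sexes, larger than most of the fold changes. Mylip had the largest fitted difference in females, -1.32 ± 0.71 (SE; adjusted p = 0.678, edgeR), and Pmvk in males, -1.07 ± 0.91 (adjusted p = 1, edgeR). Insig2 had 0.50 ± 0.53 in females and -0.90 ± 0.53 in males. Mbtps1 had -0.26 ± 0.30 in females and -0.51 ± 0.30 in males. In females Srebf2 had -0.42 ± 0.33, Mvd 0.43 ± 0.83 and Ggps1 0.34 ± 0.49, and in males Scap had -0.89 ± 0.62, Stard4 -0.63 ± 0.72 and Mbtps2 0.39 ± 0.51. By edgeR the adjusted p of the 6 members with the lowest p was 0.678 to 0.923 in females and 1 in males. The response of females minus that of males was 1.40 ± 0.75 for Insig2 and -1.79 ± 0.97 for Mylip, with an adjusted p of 0.976 by edgeR for both, and no member passed, as 0% of all genes did. edgeR gave 0 members an unadjusted p under 0.05 for this difference, where 3.78% of all genes had one, and DESeq2 and limma-voom called 0 members and 0.0138% and 0.0046% of all genes.

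The p16-3MR medians depended on single livers. Without liver 33 the female median was 0.37 and without liver 31 it was -0.38. Without liver 32 the male median was 0.27 and without liver 34 it was -0.94. Between GCV and VEH, the stellate cell marker sum did not overlap in females (144 to 251 CPM with GCV, 255 to 322 with VEH), nor did the cholangiocyte sum (85.9 to 143 and 50.3 to 64.1) and the lymphocyte sum (18.3 to 19.1 and 2.97 to 17.9) in males, and their part in the members' values was not tested. With livers 33, 32 and 24 all left out, edgeR called 0 members in any comparison, and 0.0184% of all genes in females, 0.023% in males, 0.00919% for the difference in response and 0.818% between the sexes. An unadjusted p under 0.05 by edgeR was then found for 1 member in females (9.55% of all genes) and 2 in males (6.66%). For the difference in response it was found for 4 (7.62%), and between the sexes for 1 (5.64%). Clock genes, which also set the daily rhythm of this pathway, were read in the same livers. In p16-3MR females 4 of the 13 did not overlap between GCV and VEH, where 9.06% of the 7694 genes lay lower with GCV without overlap and 10.7% higher. These 7694 genes have a mean of at least 8.51 CPM, and the 13 were not held to that level. Per3, 1 of the 4, had means of 9.55 CPM in GCV females, 1.38 in VEH females, 3.71 in GCV males and 2.26 in VEH males. Arntl and Clock, the activators of the clock, had 1.01 to 11 and 19 to 27.8 CPM with GCV and 15.2 to 28.3 and 37.0 to 45.2 with VEH, and the repressors Per2 and Per3 had 13.1 to 28.3 and 2.89 to 17.3 CPM with GCV and 4.15 to 6.03 and 0.536 to 2.60 with VEH. The other 9 overlapped, among them Dbp, an output of the clock, with 0.964 to 100.5 CPM with GCV and 0.938 to 2.46 with VEH, and in males all 13 overlapped. Times of tissue collection are not given in the sources used here, and the part of the time of day was not tested.

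**Figure D3:**
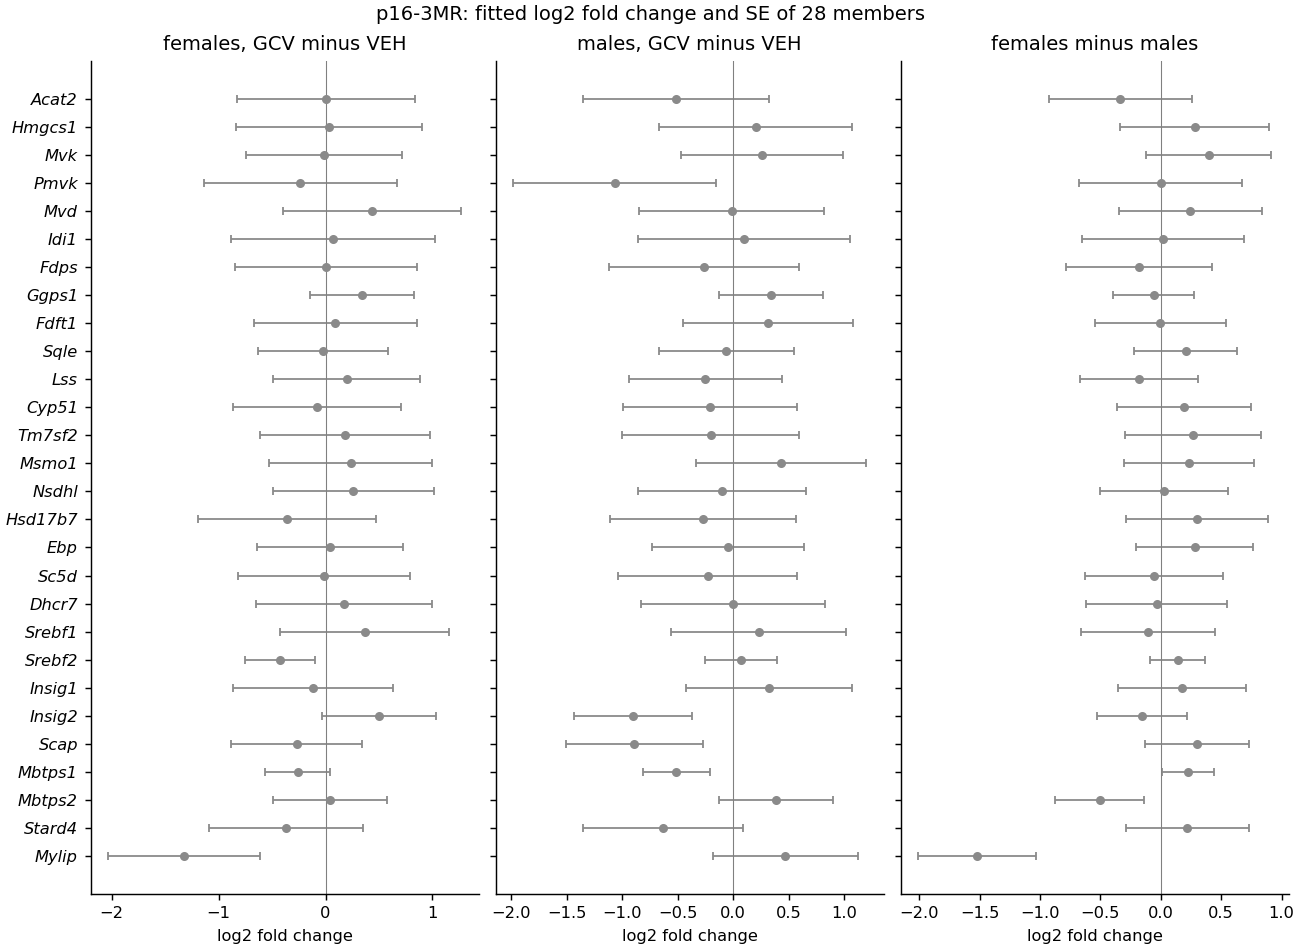
Fitted log2 fold change (horizontal axes; bars are SE) of 28 members in p16-3MR livers for GCV minus VEH in females (left), in males (middle) and for females minus males over both treatments (right). All points are grey because none passed an adjusted p of 0.05; the SE of most members spans 0.

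Between the sexes of the p16-3MR mice, no member passed. Mylip was the only one of the 28 with an unadjusted p under 0.05: its log2 difference, females minus males, was -1.52 ± 0.49 (SE), with an adjusted p of 0.546 by edgeR. An unadjusted p under 0.05 with the lower value in females was found for 4.44% of all genes, and an adjusted p under 0.05 in either direction for 0.303%. DESeq2 and limma-voom called 0 members here, and 0.901% and 0.988% of all genes. With VEH livers alone, 0 members had an unadjusted p under 0.05 by edgeR, where 2.74% of all genes did. With GCV livers alone, 1 member did, where 8.41% of all genes did.

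In wild-type females nearly all members had lower fitted values with GCV. Over the 12 enzymes with a readable label the highest liver exceeded the lowest by a median of 1.75 times in females and 1.46 times in males, and the median SD within groups was 0.23 on the log2 scale. In females 17 of the 18 members had a fitted log2 fold change below 0, all 12 enzymes among them, and Insig2 alone was above. The median was -0.33, against 0.00 over all genes. By edgeR 0 of the 18 members passed an adjusted p of 0.05, where 0.00791% of all genes did. DESeq2 called 2 members, Cyp51 and Nsdhl, and 0.134% of all genes, and limma-voom called 0 members and 0.0237%. An unadjusted p under 0.05 with the lower value in GCV was found for 6 members (Pmvk, Mvd, Idi1, Cyp51, Nsdhl and Scap) and for 2.32% of all genes.

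Cyp51, which removes a methyl group from lanosterol, had 174, 156 and 160.1 CPM in the GCV females 4, 5 and 6 and 252, 211 and 223 in the VEH females. All GCV livers lay below all VEH livers, and the fitted log2 fold change was -0.49 ± 0.10 (SE; adjusted p = 0.232, edgeR). Nsdhl, a sterol dehydrogenase of the following demethylation steps, had 64.6, 56.7 and 56.7 CPM with GCV and 86.7, 79.0 and 104 with VEH, again without overlap. Its log2 fold change was -0.60 ± 0.13 (adjusted p = 0.25, edgeR), the lowest of the 18 members. Idi1 had 135, 148 and 115 CPM with GCV and 195, 163 and 196 with VEH, a difference of -0.48 ± 0.12 (adjusted p = 0.32, edgeR). The groups did not overlap here either.

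Scap had 104, 96.1 and 112 CPM in the GCV females and 142, 142 and 129 in the VEH females, without overlap. Its log2 fold change was -0.40 ± 0.12 (adjusted p = 0.612, edgeR). Mvd had 33.9, 32.5 and 47.8 CPM with GCV and 48.5, 54.9 and 59.5 with VEH. Here the highest GCV liver, 6, came close to the lowest VEH liver, 4, and the log2 fold change was -0.50 ± 0.20 (adjusted p = 1, edgeR). Pmvk had 90.4, 88.3 and 121 CPM with GCV and 115, 169 and 149 with VEH, so GCV liver 6 overlapped VEH liver 4, with a log2 fold change of -0.53 ± 0.16 (adjusted p = 0.755, edgeR).

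The other regulators had fitted values closer to 0. Stard4 had 137, 126 and 147 CPM in the GCV females and 168, 155 and 151 in the VEH females, without overlap, and a log2 fold change of -0.21 ± 0.12. Insig1 had 417, 417 and 466 CPM with GCV and 470.2, 470.3 and 449 with VEH, and a log2 fold change of -0.10 ± 0.17. Insig2 had 96.5, 97.8 and 106 CPM with GCV and 107, 72.1 and 81.3 with VEH, and a log2 fold change of 0.20 ± 0.22. The adjusted p was 1 by edgeR for these 3 genes. The remaining 9 readable members had log2 fold changes from -0.46 (Mvk) to -0.01 (Mbtps2).

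Over the 18 members, all GCV females lay below all VEH females for 6 (Mvd, Idi1, Cyp51, Nsdhl, Scap and Stard4), and none lay above. Among the 7763 genes at or above the lowest member's mean level, the GCV females lay below without overlap for 5.66%. GCV female 6 was the highest of its group for most members: without it, 14 of the 18 members did not overlap, as did 10.6% of all these genes, and the median log2 fold change was -0.42. Without GCV female 5 the median was -0.28. The 2 readable hepatocyte markers summed to 13215 to 14845 CPM in GCV females and 14519 to 14880 in VEH females, and the 2 readable Kupffer cell markers to 114 to 121 and 94.6 to 140 CPM. Of the 4 clock genes with a readable label, Ciart had 1.46 to 2.71 CPM in GCV females and 3.76 to 8.46 in VEH females, and Nr1d1 and Nr1d2 overlapped. The 3 readable lymphocyte markers summed to 2.19 to 2.71 CPM in GCV females and 3.1 to 5.09 in VEH females, without overlap and at few counts. The endothelial (3 markers), stellate (2) and cholangiocyte (3) sums overlapped, and none of the 4 pancreas and gut markers had a readable label. The part of these features in the lower levels was not tested.

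**Figure D4:**
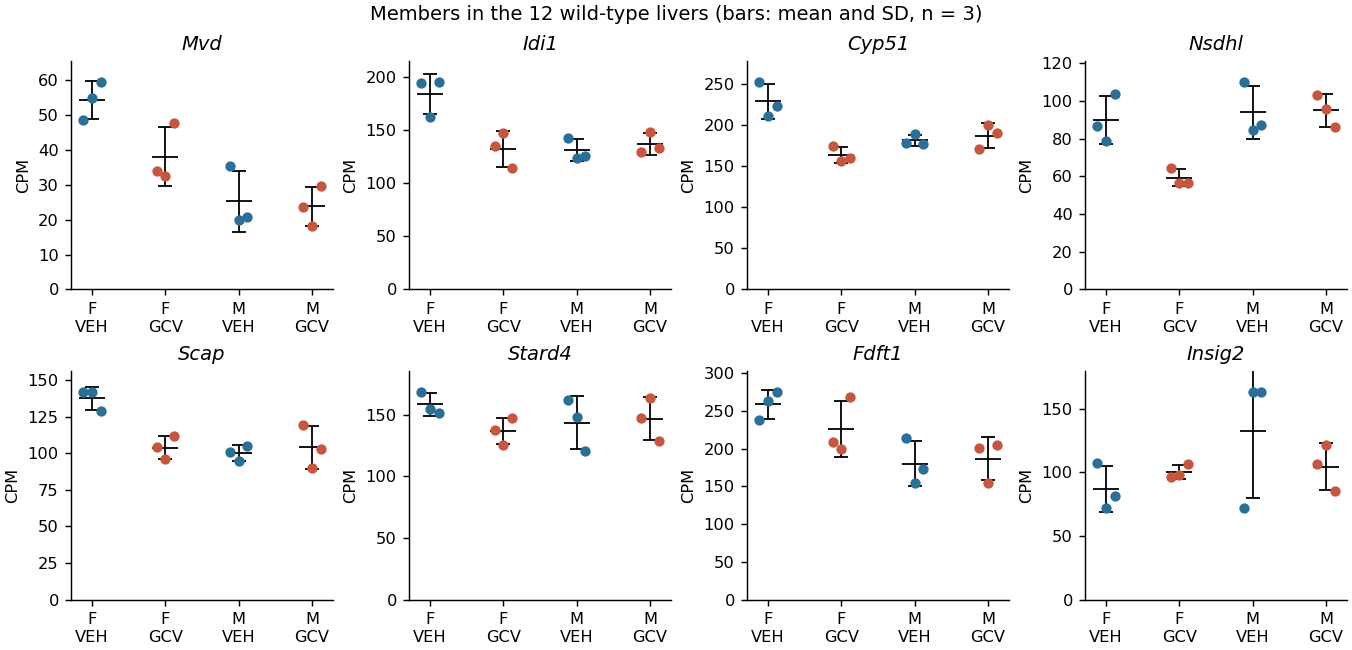
CPM (vertical axes, starting at 0) of 8 members in the 12 wild-type livers by sex and treatment; points are livers and black bars mean and SD (n = 3). In females the GCV livers (red) lie below the VEH livers (blue) for Mvd, Idi1, Cyp51, Nsdhl, Scap and Stard4; in males the groups overlap for all 8.

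In wild-type males the fitted values lay on both sides of 0. Of the 18 members 13 had a fitted log2 fold change above 0 and 5 below, with a median of 0.05. By edgeR 0 members passed, where 0% of all genes did, and 0 had an unadjusted p under 0.05, where 5.06% of all genes did. Without VEH male 1 the latter became 7 members and 9.68% of all genes. Without GCV male 2 it became 2 members and 7.48%, and with each other liver left out it stayed 0. DESeq2 and limma-voom called 0 members, and 0.00791% and 0% of all genes. Cyp51 had 170.1, 200.4 and 189.8 CPM in the GCV males 1, 2 and 3 and 178, 189 and 177 in the VEH males. Its log2 fold change was 0.04 ± 0.11, where females had -0.49 ± 0.10. Nsdhl had 103, 95.8 and 86.1 CPM with GCV and 110.2, 84.6 and 87.1 with VEH, and a log2 fold change of 0.02 ± 0.13. Idi1 had 129.5, 149 and 134 CPM with GCV and 143, 124 and 126 with VEH, and a log2 fold change of 0.07 ± 0.12.

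The members with the lowest p in wild-type males were Insig2, Mbtps2, Fdps, Sqle, Pmvk and Tm7sf2, and all 6 had an adjusted p of 0.889 to 0.963 by edgeR. Fdps, farnesyl diphosphate synthase, had 541, 438 and 773 CPM in the GCV males and 614, 402 and 439 in the VEH males, a log2 fold change of 0.27 ± 0.19 (SE), and 348, 312 and 491 CPM in the GCV females and 431, 569.6 and 434 in the VEH females. Insig2 had -0.34 ± 0.22, Mbtps2 0.59 ± 0.37, Sqle 0.29 ± 0.21, Pmvk 0.18 ± 0.16 and Tm7sf2 -0.09 ± 0.16. Sqle had 139.6, 66.7 and 106 CPM in the GCV males and 115, 67.8 and 72.4 in the VEH males, and 91.1, 82.0 and 106 in the GCV females and 122, 106 and 129 in the VEH females. Pmvk had 101, 97.2 and 127 CPM with GCV and 117, 82.6 and 87.4 with VEH in males. These groups overlapped. Mbtps2 had 4.09, 6.36 and 5.19 CPM in the GCV males and 3.99, 3.28 and 3.29 in the VEH males, the only member of the 18 whose GCV males all lay above all VEH males, as for 4.73% of the 7763 genes, and 2.71, 4.6 and 2.92 CPM in the GCV females and 4.3, 3.32 and 2.35 in the VEH females. Tm7sf2, a sterol reductase, had 63.5, 75.7 and 58 CPM in the GCV males, 62.8, 68.0 and 80.1 in the VEH males, 80.2, 59.8 and 69.3 in the GCV females and 68.1, 99.1 and 76.6 in the VEH females. In the same males the hepatocyte marker sum was 16887 to 17754 CPM with GCV and 18051 to 18920 with VEH, the 4 clock genes 69.9 to 99.1 and 99.3 to 109, and the lymphocyte sum 2.14 to 3.69 and 1.06 to 1.55, all without overlap, and their part in these values was not tested.

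The response of females minus that of males was below 0 for 17 of the 18 members and for 49.5% of the 7763 genes. The median was -0.49 over the members and -0.01 over all genes. This difference uses the same female values as the comparison of GCV and VEH females above, so it is not a separate observation of them. It was -0.53 ± 0.15 (SE) for Cyp51, -0.71 ± 0.23 for Pmvk, -0.55 ± 0.17 for Idi1, -0.61 ± 0.19 for Nsdhl, -0.45 ± 0.17 for Scap and -0.64 ± 0.29 for Sqle. The adjusted p by edgeR was 0.979 for Cyp51 and 0.982 for the other 5. Scap had 119.5, 90 and 103 CPM in the GCV males and 101, 94.6 and 105 in the VEH males. edgeR passed 0 of the 18 members and 0.00791% of all genes, and DESeq2 and limma-voom each called 0 members and 0.00791% of all genes. An unadjusted p under 0.05 with a lower response in females was found for 7 members (Pmvk, Idi1, Fdps, Sqle, Cyp51, Nsdhl and Scap), and for 2.5% of all genes. Counted in either direction, single livers left out gave 5 to 12 members and 3.51% to 6.98% of all genes, with 12 and 6.98% without VEH male 1.

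In wild-type males the same livers stood high for several members whatever their treatment. Livers GCV 1, GCV 3 and VEH 1 held the 3 highest male values for 8 of the 18 members (Mvk, Pmvk, Mvd, Fdps, Fdft1, Sqle, Dhcr7 and Insig1), and for 12.2% of the 7763 genes. Dhcr7 had 104, 84.7 and 132 CPM in the GCV males 1, 2 and 3 and 152, 71.5 and 72.4 in the VEH males. Insig1 had 475, 298 and 473 CPM with GCV and 538, 325 and 332 with VEH. Insig2 ran the other way, with 107, 122 and 85.2 CPM with GCV and 71.6, 163 and 163 with VEH, so that these livers held its 3 lowest values; this was so for 2 members (with Tm7sf2) and for 13.3% of the genes. These livers were picked out by their values, and no test was made. Their 10 most abundant genes took 27.2% to 29.5% of the counts, against 23.2% to 25.4% in the other males, and the part of this in the order was not tested.

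Between the sexes of the wild-type mice, over both treatments, 3 of the 18 members passed edgeR's test, where 7.94% of all genes did. Mvd was higher in females, with 32.5 to 59.5 CPM against 18.3 to 35.4 in males, by 0.91 ± 0.15 (SE) on the log2 scale (adjusted p = 0.000317, edgeR). The males had 23.6, 18.3 and 29.6 CPM with GCV and 35.4, 19.9 and 20.7 with VEH, so the sexes overlapped through male VEH liver 1. Fdft1, squalene synthase, had 209, 199 and 268 CPM in the GCV females and 237, 263 and 275 in the VEH females, and 201, 154 and 205 in the GCV males and 213, 154 and 173 in the VEH males. It was higher in females by 0.40 ± 0.10 (adjusted p = 0.0127, edgeR), with the ranges again overlapping. Nsdhl, whose values are given above, was lower in females, with a log2 difference of -0.37 ± 0.09 (adjusted p = 0.0152, edgeR). Scap, with 0.23 ± 0.08 (adjusted p = 0.1, edgeR), Idi1, with 0.22 ± 0.08 (0.129), and Fdps, with -0.31 ± 0.14 (0.195), did not pass. DESeq2 and limma-voom called the same 3 members, and 8.22% and 9.14% of all genes. An unadjusted p under 0.05 in either direction was found for 8 members, and for 20.1% of all genes. The hepatocyte marker sum was 13215 to 14880 CPM in females and 16887 to 18920 in males, and the stellate sum 244 to 275 and 178 to 231, without overlap, and their part in the sex differences was not tested.

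The members called between the sexes depended on which treatment was fitted. With VEH livers alone, 5 of the 18 members passed (Pmvk, Mvd, Idi1, Fdft1 and Scap), where 3.82% of all genes did, and Nsdhl had a log2 difference of -0.06 with an adjusted p of 0.883 by edgeR. With GCV livers alone, Nsdhl was the only member of the 18 that passed, where 3.24% of all genes did, and Mvd had a log2 difference of 0.70 with an adjusted p of 0.0959 by edgeR. The difference between the treatments in the sex difference is the response of females minus that of males given above, and it passed for no member. Without GCV female 6, Fdft1 had an adjusted p of 0.0503 by edgeR. Fdft1 overlaps Ctsb, a cathepsin gene on the opposite strand, and whether strand was used in counting is not given in the sources used here.

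**Figure D5:**
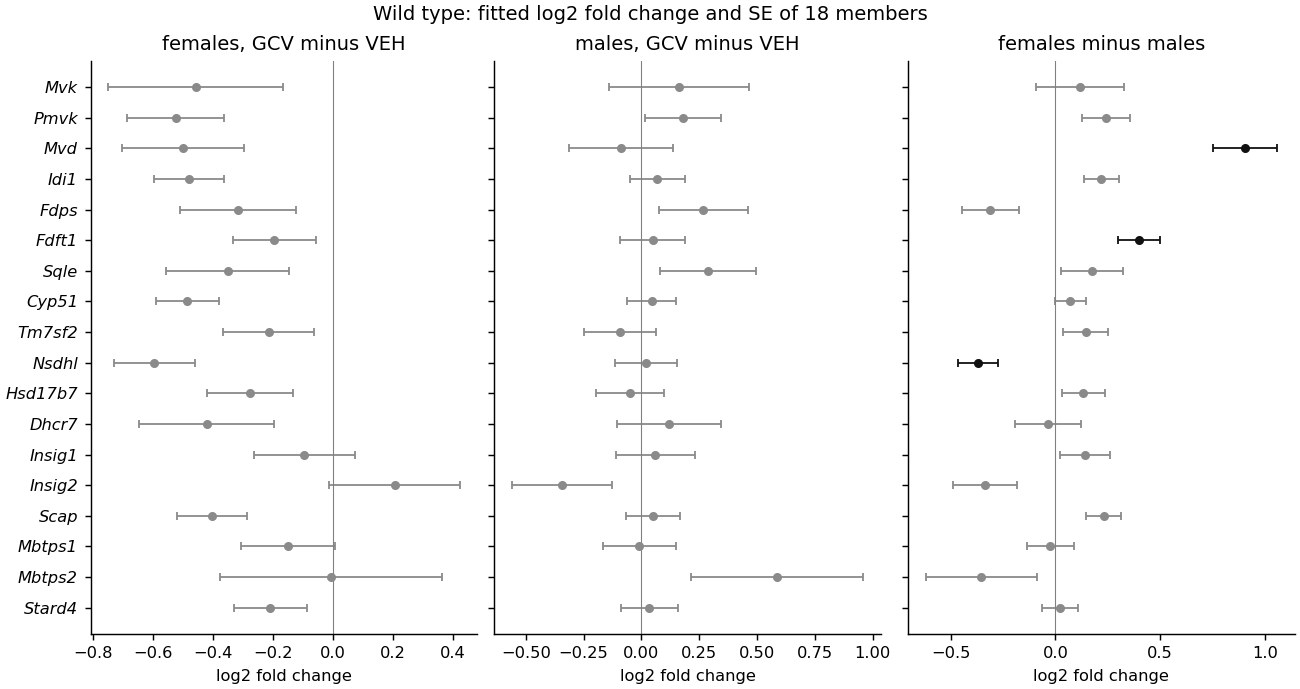
Fitted log2 fold change (horizontal axes; bars are SE) of 18 members in wild-type livers for GCV minus VEH in females (left), in males (middle) and for females minus males over both treatments (right); black points passed an adjusted p of 0.05 by edgeR. In females 17 of 18 points lie below 0, and Mvd, Fdft1 and Nsdhl are the black points on the right.

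A list of 37 other genes of the pathway (cholesterol efflux, storage and oxysterol sensing; reductase degradation and sterol handling in the endoplasmic reticulum; users of isoprenoids) was read beside the members. All 37 were in the p16-3MR table and 22 had a readable wild-type label. By edgeR 0 of them passed between GCV and VEH in either sex of either genotype; an unadjusted p under 0.05 was found in p16-3MR for 6 in females and 0 in males, and in wild type for 2 in females and 3 in males. Of all genes, 7.37%, 1.91%, 4.56% and 5.06% had one in these comparisons. In wild-type females 7 of the 22 had a log2 fold change above 0 and 14 below, with a median of -0.05, where the members had -0.33. The 3 parts of the list differed. The median was -0.23 for the 6 users of isoprenoids, 5 of them below 0 and 1 above. It was -0.04 for the 10 genes of efflux, storage and oxysterol sensing, and -0.01 for the 6 of reductase degradation and sterol handling. Between the wild-type sexes 1 of the 22 passed, where 7.94% of all genes did: Npc2, a lysosomal cholesterol carrier, was higher in females by 0.36 ± 0.10 on the log2 scale (adjusted p = 0.0252, edgeR).

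Some members share sequence or position with other genes. Acat2, a cytosolic thiolase, lies beside a close paralog, and reads of near-identical stretches could be split between the copies. In the annotation 14 of the 28 members overlap another gene. On the same strand, 5 do: Tm7sf2 with Vps51, Mbtps2 with Yy2, Fdps with Gm43738 and Gm22935, Srebf1 with microRNA genes, and Srebf2 with Gm49502 and a microRNA gene. On the opposite strand, Cyp51 overlaps Akap9, Ggps1 overlaps Arid4b, Fdft1 overlaps Ctsb, Srebf1 overlaps Rai1, and Hmgcs1, Mvd, Idi1, Lss, Insig2, Scap and Mbtps2 overlap predicted or unnamed genes. Reads of the overlapping stretches could be split between the genes, and the values of these members are less certain for that reason.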

How the data were processed

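Liver RNA of 24 mice was read with Smart-3SEQ. Per the labels and the methods of the study, reads were checked with FastQC 0.11.9, trimmed with Trim Galore 0.6.10 and quantified with Salmon 1.10.3 (mm10), summed to genes with tximport, and genes under 3 reads were removed. The deposited gene values are expected counts as Salmon estimates them, already whole and not normalized; reads of repeated or overlapping genes are shared out by estimation, and transcript-end reads make levels of different genes not comparable. Totals ranged from 5005760 to 7160172 counts in p16-3MR and from 3084517 to 5667904 in wild type. A floor of 3 counts is 0.419 to 0.973 CPM before TMM scaling, for counting error only. After TMM scaling, 3 counts are 2.32 CPM in liver 33.

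The counts were fitted with edgeR 4.0.16 in R 4.3.3, per genotype over all 12 livers: TMM scaling, 1 mean per group, quasi-likelihood test, Benjamini-Hochberg adjustment over all genes and a threshold of 0.05. SE was taken from the fold change and its F statistic. Logged levels used a prior count of 2. DESeq2 1.42.0, limma-voom (limma 3.58.1), other scaling, a filter, thresholds and left-out livers were alternatives, and the tests were first tried on simulated data. Symbols, positions and overlaps came from GENCODE M21 (GRCm38): 21698 of 21755 p16-3MR identifiers and 10496 of 12643 wild-type labels matched a single symbol. No columns were left out.

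The 28 members, the marker and pathway lists and the tests were chosen with earlier results of these data known. The members given in full are those called, the 6 per comparison with the lowest p, and Srebf1, Srebf2, Insig1, Insig2, Stard4 and Mylip; Hmgcs1, Sqle and Dhcr7 were added after their values were seen. In wild type, same-numbered GCV and VEH livers did not deviate together in every pair, so numbers were not used as pairs.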

Additional observations from a re-analysis of the deposited data

How the results depend on the processing

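In p16-3MR no alternative called a member in any of the 4 comparisons, and in wild-type males none did either, where the alternatives called 0% to 0.988% and 0% to 0.538% of all genes. In wild-type females the 0 members called by edgeR became 2 with DESeq2 (0.134% of all genes), 3 (Idi1, Cyp51 and Nsdhl; 0.348%, against 0.00791% in the fit of all livers) when only the 6 female livers were fitted, and stayed 0 with every single liver left out (0% to 0.0949%). The 6 members with an unadjusted p under 0.05 became 12 with the 6 female livers alone, and ran from 5 to 10 with single livers left out, while the share of all genes, 4.56%, became 6.11% and ran from 3.37% to 5.31%. The 6 members without overlap ran from 6 to 14 when a female liver was left out, while the share of all genes rose from 5.66% to between 9.27% and 13%. The median log2 fold change ran from -0.42 to -0.28 for wild-type females and from -0.57 to -0.35 for the difference between the sexes in response. With the replicate block (livers paired by number within each sex), 4 members were called in wild-type females (Pmvk, Idi1, Cyp51 and Nsdhl; 0.838% of all genes), 10 had an unadjusted p under 0.05 (5.68%), and 2 (Pmvk and Fdps; 0.625%) were called for the difference in response, so calls rose over all genes too. The correlation of deviations between same-numbered livers ran from -0.06 to 0.00 in females and from -0.10 to 0.30 in males, so the numbers may not mark pairs. Between the wild-type sexes, the 3 called became 5 with VEH livers only and 1 with GCV livers only (3.82% and 3.24% of all genes), where the median log2 difference was -0.10 in place of 0.13; single livers left out gave 2 to 4 (6.23% to 9.94% of all genes). The cause of these changes was not tested. In p16-3MR, single livers left out moved the median log2 fold change from -0.38 to 0.37 in females and from -0.94 to 0.27 in males. The level of liver 33 depended on the scaling. Its median enzyme level was -1.71 with TMM, -1.60 with DESeq2 size factors and -3.65 as a share of all counts. In p16-3MR the median SE of a member's log2 fold change was 0.76, and several members had few counts in liver 33, so large changes there could also have gone uncalled.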
